A study of Homo sapiens with 12 samples.

Results

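The genes described here are 40 human genes of the lysosome, the acidic compartment in which cells break down proteins, sugars, lipids and whole organelles. They were chosen by name, with earlier results of these data known, so comparisons of their counts with all genes are descriptions only. All 40 symbols matched 1 Ensembl identifier each among the 57773 in the deposited table. By role, 6 encode membrane proteins, 4 encode parts of the proton pump or its partner, 10 proteases, 9 glycosidases, 3 sulfatases, 7 lipid enzymes or lipid carriers, and 1 (TFEB) a transcription factor. The cells were RPE1, an immortalised human line derived from retinal pigment epithelium, transfected for 24 h with siRNA. The siRNA was directed against Anillin (ANLN), a scaffold of the contractile ring whose loss makes cytokinesis fail, or was a non-targeting control. Live cells were stained with a Hoechst DNA dye (2 µg/mL, 60 min, 37 °C) and sorted by DNA content. The 4 groups, of 3 biological replicates each, were therefore Anillin siRNA 4N, Anillin siRNA 2N, control siRNA 4N and control siRNA 2N, all from 1 cell line. The sort records DNA content alone, so a 4N gate can hold tetraploid cells as well as diploid cells that have replicated their DNA.

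Lysosomal enzymes are made in the endoplasmic reticulum, tagged with mannose 6-phosphate in the Golgi and delivered to lysosomes, where a proton pump (the V-ATPase) holds the pH low enough for them to work. Many of their genes share a promoter motif, the CLEAR element, bound by TFEB and its relatives TFE3 and MITF. The kinase complex mTORC1 keeps TFEB in the cytoplasm while nutrients are plentiful. A gain or loss of TFEB activity through this route need not change the amount of TFEB RNA.

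Between 17412743 and 61760459 reads in genes lay behind each library. ANLN, the siRNA target, was at 0.0700 to 0.0989 RPKM (reads in the gene, scaled to its length in kilobases and to the library's depth) in Anillin 4N cells and 0.0395 to 0.0850 RPKM in Anillin 2N cells, against 7.45 to 8.42 RPKM in control 4N cells and 1.25 to 1.88 RPKM in control 2N cells. The summed level of 6 markers of cycling cells (MKI67, TOP2A, CDK1, CCNB1, UBE2C and CDC20) was at most 32.4 RPKM in Anillin 4N cells, 9.07 to 9.81 RPKM in Anillin 2N cells, 210 to 242 RPKM in control 4N cells and 24.7 to 37.3 RPKM in control 2N cells. Its part in the results that follow was not tested. Macrophages are rich in lysosomes. Of 10 markers of macrophages and other blood cells, TYROBP and HBB were at 0 in all 12 libraries. CD68, itself a lysosomal membrane protein, was the only one to pass the filter used for testing. Others were detected below that filter, among them CSF1R (0.186 to 0.334 RPKM), CD14 (at most 0.213 RPKM) and LYZ (at most 0.190 RPKM). Of 8 markers of retinal pigment epithelium, KRT8 and KRT18 passed that filter, and RPE65, which defines the mature tissue, did not exceed 0.0625 RPKM. Among the control libraries, control 2N replicate 2 stood apart, with the lowest cycling-marker sum of its group (24.7 RPKM, against 37.3 and 32.4 RPKM in replicates 1 and 3) and the highest lysosomal share of reads. Calls that were lost without that library are given with the comparisons that use it.

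The 40 genes together took 0.971% to 1.01% of the reads in the 6 Anillin libraries. Their share was 0.695% to 0.747% in the 3 control 4N libraries and 0.798% to 0.909% in the 3 control 2N libraries. Every Anillin library lay above every control library. These are shares of total reads, without the authors' further scaling, which is given with the processing. CTSD, an aspartic protease, and PSAP, the precursor of the saposins that help enzymes act on membrane lipids, made up more than the other 38 genes combined in all 12 libraries. The other 38 genes showed the same order, with 0.434% to 0.438% of reads in Anillin 4N libraries and 0.427% to 0.439% in Anillin 2N libraries, against 0.343% to 0.356% in control 4N libraries and 0.363% to 0.398% in control 2N libraries. In bulk RNA, more RNA per cell cannot be told apart from more cells that make it.

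**Figure D1:**
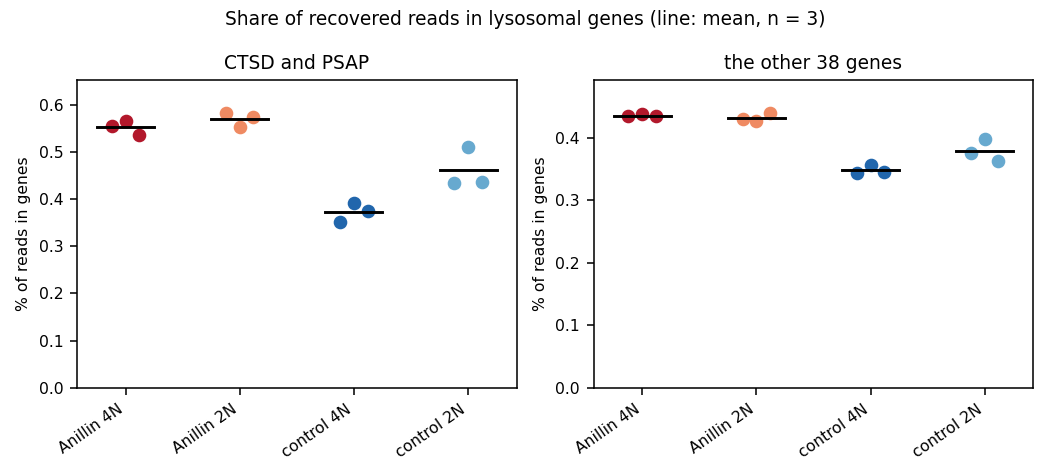
Percentage of all reads in genes that fell in CTSD and PSAP (left) and in the other 38 lysosomal genes (right), with 1 point per library and a line at the mean of each group of 3. All 6 Anillin libraries lie above all 6 control libraries in both panels, and the control 4N libraries, at 0.352% to 0.391% on the left, are the lowest.

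The deposited RPKM divides by the whole genomic span of a gene, introns included. Levels of different genes were therefore compared per kilobase of annotated exon instead. That length joins all annotated exons of a gene, 1887 bases for CTSK and 6713 for SGSH, and all reads are taken as exonic. The order of genes thus depends partly on the annotation. On that scale CTSD (778 RPKM recomputed per exon kilobase, mean of all 12 libraries) and PSAP (752) led. CD63, a tetraspanin of late endosomes and lysosomes, followed at 172 and CTSB, a cysteine protease, at 73.9. NPC2 (61.8), LAMP1 (60.9) and CTSK (56.8) came next. SGSH, which removes sulfate from heparan sulfate, was the lowest of the 40, below TFEB at 2.06. None of the 40 genes was at 0 in any library, and the fewest reads of any of them in a library were 98, for SGSH. All values below are deposited RPKM, compared only between groups for the same gene.

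The RefSeq promoter table (GRCh38.p14) held an entry for 27 of the 40 genes. In the 250 bases before and 50 after the start, the core CACGTG was present in 11 of these 27 (40.7%), against 7.73% of all genes in the table. The longer TCACGTGA, which contains that core, was present in 5 (18.5%, against 1.04% of all genes), namely ATP6V0D1, CTSA, GAA, LAMP1 and MCOLN1. Both are their own reverse complements, so each match counts for both strands. GAA is the acid alpha-glucosidase that degrades glycogen, MCOLN1 the lysosomal calcium channel and LAMP1 the main glycoprotein of the lysosomal membrane. CTSA is a carboxypeptidase that also protects NEU1. CTSL, a cysteine protease with no CACGTG, was picked for display because its level was lower after Anillin siRNA. It does not stand for genes whose windows lack the core. Of those tested below, 8 were higher, 2 lower and 5 neither in Anillin 4N against control 4N cells. The 5 windows shown are those of GAA, MCOLN1, LAMP1 and CTSA, which have TCACGTGA, and of CTSL. Each is the 250 bases before the annotated start on the plus strand, 5′ to 3′, with every CACGTG in capitals. GAA spans chr17:80101331-80101580, MCOLN1 chr19:7522374-7522623, LAMP1 chr13:113296989-113297238, CTSA chr20:45891085-45891334 and CTSL chr9:87725869-87726118.
GAA: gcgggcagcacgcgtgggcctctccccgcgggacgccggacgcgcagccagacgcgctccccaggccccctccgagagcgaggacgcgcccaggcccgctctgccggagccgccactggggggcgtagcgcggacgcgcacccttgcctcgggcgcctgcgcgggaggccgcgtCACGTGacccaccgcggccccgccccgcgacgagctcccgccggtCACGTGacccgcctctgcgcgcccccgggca
MCOLN1: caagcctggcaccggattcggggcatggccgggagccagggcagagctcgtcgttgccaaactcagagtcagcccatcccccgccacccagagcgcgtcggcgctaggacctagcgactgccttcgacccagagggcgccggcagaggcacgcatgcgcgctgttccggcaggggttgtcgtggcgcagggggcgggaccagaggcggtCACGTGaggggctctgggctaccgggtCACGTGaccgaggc
LAMP1: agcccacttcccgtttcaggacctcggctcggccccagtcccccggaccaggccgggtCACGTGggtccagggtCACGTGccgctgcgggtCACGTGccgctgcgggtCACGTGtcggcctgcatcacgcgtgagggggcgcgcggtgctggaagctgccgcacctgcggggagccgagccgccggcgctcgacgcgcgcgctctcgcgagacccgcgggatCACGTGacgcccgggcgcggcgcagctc
CTSA: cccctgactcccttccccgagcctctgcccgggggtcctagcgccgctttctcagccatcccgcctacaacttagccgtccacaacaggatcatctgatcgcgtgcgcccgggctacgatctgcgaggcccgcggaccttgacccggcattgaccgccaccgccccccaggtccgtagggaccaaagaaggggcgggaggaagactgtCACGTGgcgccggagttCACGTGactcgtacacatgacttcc
CTSL: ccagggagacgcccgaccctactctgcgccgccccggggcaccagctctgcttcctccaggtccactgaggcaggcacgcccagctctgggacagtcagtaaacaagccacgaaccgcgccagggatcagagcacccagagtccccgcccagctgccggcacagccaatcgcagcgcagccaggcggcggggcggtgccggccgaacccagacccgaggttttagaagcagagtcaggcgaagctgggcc
LAMP1 holds 5 copies of the core, and GAA, MCOLN1 and CTSA hold 2 each. A match is a run of letters and no evidence of binding in these cells.

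In 4N cells, most of the lysosomal genes that could be tested were higher after Anillin siRNA. Genes at 0.5 RPKM or more in at least 3 libraries were tested, which left 36 of the 40, with limma on log2(RPKM + 0.5) and a Benjamini-Hochberg adjusted p under 0.05. Of the 36 that passed this filter, 23 were higher in Anillin 4N than in control 4N cells (63.9%), 3 were lower (8.33%) and 10 did not pass the threshold. Over all genes tested, 20.0% were higher and 31.5% lower. The median change of the 36 was 0.25 on the log2 scale, against -0.05 over all genes tested. SGSH passed the filter through its Anillin libraries and 1 control library, so its presence among the 36 is not independent of its change. A test on the reads recovered from the RPKM values (limma-voom), which covered all 40, found 26 higher and 3 lower, against 22.0% higher and 22.8% lower over 22404 genes.

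Of the 10 proteases 7 rose and 2 fell, and of the 7 lipid enzymes or carriers 5 rose. Over all genes tested, 20.0% rose and 31.5% fell. PSAP had 84.3, 82.9 and 81.2 RPKM in Anillin 4N cells, against 46.5, 52.4 and 48.9 RPKM in control 4N cells. The groups were far apart, with means of 82.8 ± 1.55 and 49.3 ± 2.95 RPKM (SD, n = 3 each), a ratio of 1.68. The log2 change was 0.75 (SE 0.08, adjusted p = 2.89e-05). TPP1, a tripeptidyl peptidase lost in a childhood neuronal ceroid lipofuscinosis, had 37.2, 38.2 and 36.6 RPKM in Anillin 4N cells, against 20.8, 24.2 and 23.1 RPKM in control 4N cells. Again the groups did not overlap, and the change was 0.71 (SE 0.09, adjusted p = 0.000140). CTSA had 33.0, 34.7 and 34.2 RPKM in Anillin 4N cells, against 20.4, 22.5 and 21.7 RPKM in control 4N cells, a change of 0.64 (SE 0.05, adjusted p = 5.10e-06). CTSF, a cysteine protease, had 4.16, 4.22 and 3.91 RPKM in Anillin 4N cells, against 2.24, 2.96 and 2.25 RPKM in control 4N cells. All 3 Anillin values exceeded the highest control value, which was that of replicate 2, and the change was 0.63 (SE 0.08, adjusted p = 0.000149). CTSK, a cysteine protease best known for digesting collagen in osteoclasts, averaged 10.3 ± 0.0908 RPKM in Anillin 4N cells and 6.75 ± 0.102 RPKM in control 4N cells (SD, n = 3 each). CTSO rose by 0.52 (adjusted p = 0.000129).

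Of the sulfatases, SGSH had 0.883, 1.09 and 0.916 RPKM in Anillin 4N cells, against 0.288, 0.392 and 0.366 RPKM in control 4N cells. That is a ratio of means of 2.76, the highest among the 36. Its change was 0.79 (SE 0.06, adjusted p = 5.75e-06) on the log2(RPKM + 0.5) scale, which understates changes of low genes, and 1.43 (SE 0.11, adjusted p = 3.66e-09) on the recovered reads. ARSA, which removes sulfate from the myelin lipid sulfatide, averaged 8.48 ± 0.213 RPKM in Anillin 4N cells and 5.31 ± 0.142 RPKM in control 4N cells (SD, n = 3 each), a change of 0.63. Among the glycosidases, GAA had 2.76, 2.92 and 2.65 RPKM in Anillin 4N cells, against 1.39, 1.69 and 1.66 RPKM in control 4N cells. The change was 0.66 (SE 0.07, adjusted p = 4.81e-05), and the groups did not overlap. NEU1, a sialidase, and IDUA, which acts on heparan and dermatan sulfate, both rose by 0.45 on that scale. Their ratios of means were 1.39 for NEU1 and 1.73 for IDUA, the lower of the 2 genes in RPKM. HEXA, a subunit of the hexosaminidase that degrades the ganglioside GM2, rose by 0.41, and MAN2B1, an alpha-mannosidase, by 0.39. NAGLU (0.11, adjusted p = 0.122) and GUSB (0.06, adjusted p = 0.324) did not pass the threshold.

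Of the 6 membrane protein genes 2 rose, and of the 3 pump genes tested 2 rose, against 20.0% of all genes tested. The median change of the 6 membrane protein genes was 0.02. LAMP1 had 15.1, 15.2 and 15.6 RPKM in Anillin 4N cells, against 11.1, 11.2 and 10.8 RPKM in control 4N cells, a rise of 0.45 (SE 0.05, adjusted p = 3.00e-05). Its close relative LAMP2, an isoform of which serves chaperone-mediated autophagy, had 5.96, 5.79 and 5.95 RPKM in Anillin 4N cells, against 5.90, 6.41 and 6.05 RPKM in control 4N cells. Those values overlapped, and the 95% interval of the LAMP2 change ran from -0.19 to 0.10. CD63 had 103, 103 and 109 RPKM in Anillin 4N cells and 105, 102 and 105 RPKM in control 4N cells, with an interval from -0.06 to 0.09. NPC1, the membrane protein that exports cholesterol from lysosomes, changed by 0.03 (adjusted p = 0.445), its soluble partner NPC2 by 0.01 (adjusted p = 0.807) and CLN3 by 0.00 (adjusted p = 0.994). MCOLN1 had 1.26, 1.29 and 1.28 RPKM in Anillin 4N cells, against a mean of 1.13 ± 0.0246 RPKM in control 4N cells (SD, n = 3), a rise of 0.12 (SE 0.03, adjusted p = 0.0111). Of the pump genes tested, ATP6V0D1, a subunit of the membrane sector, and ATP6AP1, an accessory protein, both rose by 0.22, and ATP6V1A, the catalytic subunit, changed by -0.07 (adjusted p = 0.168). Among lipid enzymes, SMPD1, the acid sphingomyelinase, rose by 0.38, LIPA, the acid lipase that frees cholesterol from its esters, by 0.31, and ASAH1, the acid ceramidase, and PPT1, which removes palmitate from proteins, by 0.27 each. GM2A, the activator that presents GM2 to hexosaminidase, changed by 0.12 and did not pass the threshold (adjusted p = 0.0794).

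Against this, 3 genes were lower in Anillin 4N cells. CTSL had 10.4, 10.3 and 10.7 RPKM in Anillin 4N cells, against 13.6, 13.6 and 14.2 RPKM in control 4N cells. The groups did not overlap, and the change was -0.38 (SE 0.04, adjusted p = 1.51e-05). GLA, the alpha-galactosidase that is deficient in Fabry disease, had 2.07, 1.98 and 2.33 RPKM in Anillin 4N cells, against 3.10, 2.75 and 2.80 RPKM in control 4N cells, a change of -0.36 (SE 0.07, adjusted p = 0.00173). CTSB had 18.6, 19.0 and 19.4 RPKM in Anillin 4N cells, against 21.3, 22.0 and 21.4 RPKM in control 4N cells, a change of -0.18 (SE 0.04, adjusted p = 0.00292). The fall of CTSB was lost when the libraries were scaled to the same quantiles (-0.01, adjusted p = 0.876), whereas CTSL was still lower (-0.22, adjusted p = 0.00268). The same scaling brought CD63 (0.09), CTSZ (0.16), GUSB (0.14), NAGLU (0.21) and NPC2 (0.15) past the threshold as higher, with adjusted p between 0.00504 and 0.0346, and raised the share of higher calls over all genes to 52.4%, against 38.9% without it.

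A small rise of CTSD, with 213, 225 and 218 RPKM in Anillin 4N cells against 181, 198 and 198 RPKM in control 4N cells, passed the threshold (0.19, SE 0.06, adjusted p = 0.0198). It no longer did without Anillin 4N replicate 2 (0.16, adjusted p = 0.0678) or without control 4N replicate 1 (0.14, adjusted p = 0.0805). CTSH, an aminopeptidase, rose by 0.07 (adjusted p = 0.0184) and lost the call without Anillin 4N replicate 2, Anillin 4N replicate 3 or control 4N replicate 2, with an adjusted p of 0.0581, 0.0636 and 0.0586, as well as on the recovered reads (0.13, adjusted p = 0.0592). The total of members called higher was 21 to 24 when each library in turn was left out, and 3 to 4 were called lower.

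**Figure D2:**
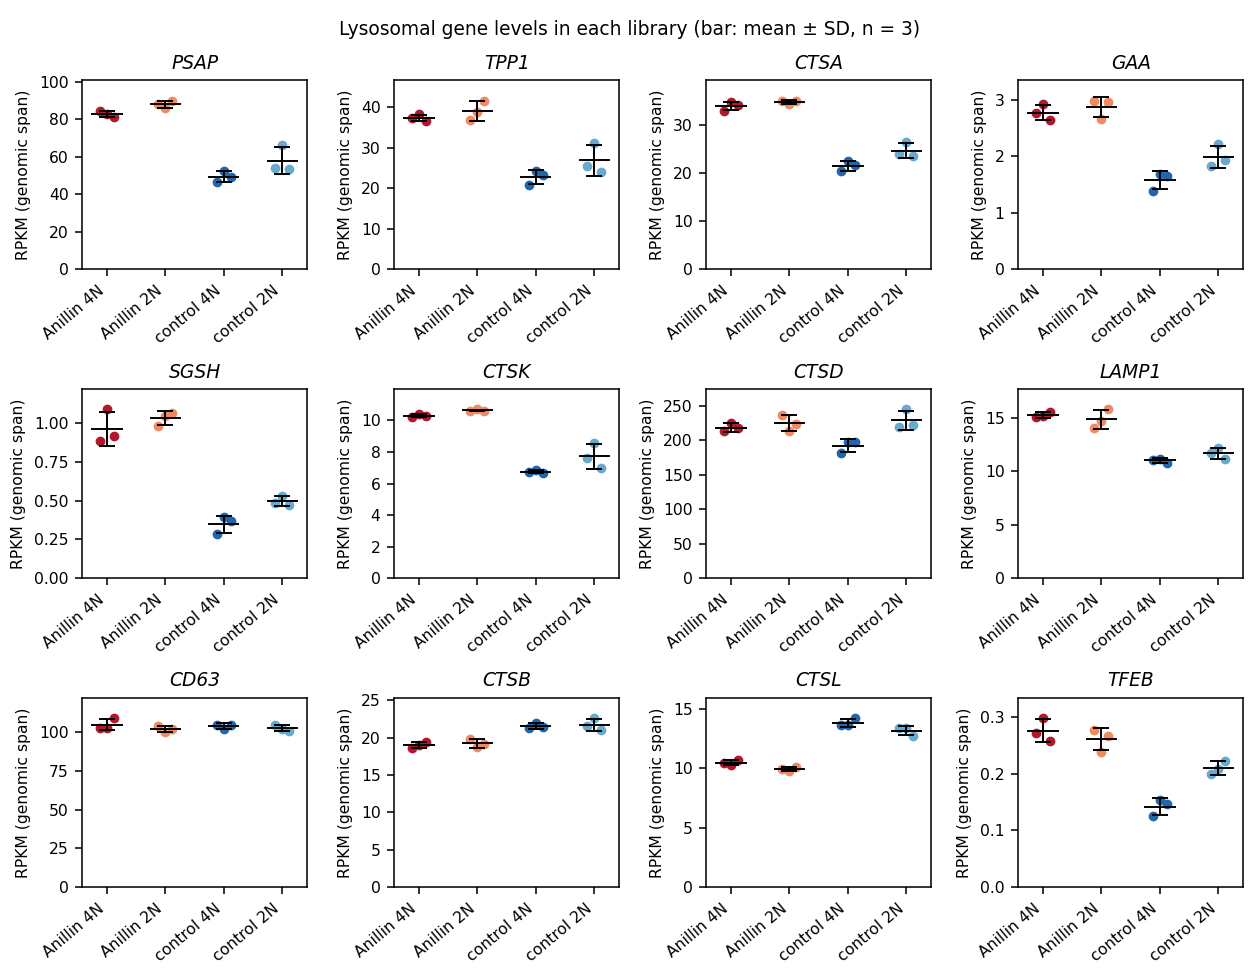
Deposited RPKM of 12 lysosomal genes in each of the 12 libraries, with points for libraries and bars for the mean ± SD of 3. PSAP, TPP1, CTSA, GAA, SGSH, CTSK and LAMP1 are higher in all 6 Anillin libraries than in all 6 control libraries, CTSB and CTSL are lower, and CD63 overlaps between all groups, at 100 to 109 RPKM.

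Below the filter lay TFEB, MANBA, ARSB and ATP6V1H, which were tested on the recovered reads, where the 157 to 718 reads per library for TFEB were the fewest of these genes. TFEB had 0.272, 0.298 and 0.258 RPKM in Anillin 4N cells, against 0.125, 0.154 and 0.146 RPKM in control 4N cells. The groups did not overlap, and on the reads TFEB rose by 0.93 (SE 0.10, adjusted p = 2.28e-07). It stood at 0.278, 0.239 and 0.267 RPKM in Anillin 2N cells, against 0.199, 0.209 and 0.223 RPKM in control 2N cells, a rise of 0.31 on the reads (SE 0.08, adjusted p = 0.00786). In that 2N comparison TFEB did not pass the threshold on log2(RPKM + 0.5) without the filter (0.10, adjusted p = 0.0785). MANBA, a beta-mannosidase, rose by 0.69 on the reads in 4N cells (adjusted p = 1.52e-06) and changed by 0.17 in 2N cells (adjusted p = 0.127). ARSB, a sulfatase of dermatan and chondroitin sulfate, rose by 0.27 in 4N cells (adjusted p = 0.000862) and by 0.39 in 2N cells (adjusted p = 2.72e-05). ATP6V1H, a regulatory pump subunit, changed by -0.05 in 4N cells (adjusted p = 0.441) and 0.05 in 2N cells (adjusted p = 0.439).

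In 2N cells, whose libraries are not those of the 4N comparison, 20 of the 36 genes were higher in Anillin than in control cells (55.6%), 3 were lower (8.33%) and 13 did not pass the threshold. Over all genes tested in 2N cells, 11.4% were higher and 17.1% lower. The median change of the 36 was 0.19, against -0.02 over all genes. PSAP had 87.8, 85.7 and 89.9 RPKM in Anillin 2N cells, against 54.1, 66.1 and 53.5 RPKM in control 2N cells. The highest control value, that of control 2N replicate 2, lay below every Anillin value, and the change was 0.60 (SE 0.08, adjusted p = 0.000469). SGSH had 0.982, 1.05 and 1.07 RPKM in Anillin 2N cells, against 0.485, 0.532 and 0.472 RPKM in control 2N cells, a change of 0.62 (SE 0.06, adjusted p = 0.000149), or 1.08 on the reads. CTSF had 4.62, 4.65 and 4.80 RPKM in Anillin 2N cells, against 2.89, 3.26 and 2.90 RPKM in control 2N cells, a change of 0.56 (SE 0.08, adjusted p = 0.00104). TPP1 had 36.7, 38.7 and 41.6 RPKM in Anillin 2N cells, against 25.4, 31.0 and 24.0 RPKM in control 2N cells. The control values were widely spread, and the groups still did not overlap (0.54, SE 0.09, adjusted p = 0.00223). CTSA rose by 0.49, CTSK and GAA by 0.44 each, ARSA by 0.42, MCOLN1 by 0.36 and LAMP1 by 0.33.

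The genes that were lower in Anillin 2N cells were CTSL, CTSB and ATP6V1A. CTSL had 9.90, 9.75 and 10.1 RPKM in Anillin 2N cells, against 13.4, 13.4 and 12.7 RPKM in control 2N cells, a change of -0.39 (SE 0.04, adjusted p = 8.31e-05). CTSB had 19.8, 18.7 and 19.2 RPKM in Anillin 2N cells, against 21.6, 22.6 and 21.0 RPKM in control 2N cells (-0.17, SE 0.04, adjusted p = 0.00797). ATP6V1A had 1.26, 1.27 and 1.28 RPKM in Anillin 2N cells, against 1.56, 1.59 and 1.47 RPKM in control 2N cells (-0.20, SE 0.04, adjusted p = 0.00536). No value of an Anillin library reached a control value for any of these genes. GLA, lower in the 4N comparison, had overlapping values here (2.01 ± 0.181 RPKM in Anillin 2N cells, against 2.10 ± 0.139 RPKM in control 2N cells, SD, n = 3 each, adjusted p = 0.615). CTSD also overlapped, at 225 ± 11.3 RPKM in Anillin 2N cells and 229 ± 14.0 RPKM in control 2N cells (SD, n = 3 each) (-0.02, adjusted p = 0.794). LAMP2 (0.04, adjusted p = 0.685) and CD63 (-0.01, adjusted p = 0.905) did not pass the threshold. LIPA rose by 0.20 (adjusted p = 0.00458) and NPC1 by 0.12. The CTSB call was lost when only the 2N groups entered the fit (adjusted p = 0.0664). The NPC1 call was lost without Anillin 2N replicate 2 (adjusted p = 0.0555), Anillin 2N replicate 3 (0.0638) or control 2N replicate 1 (0.0770). ATP6V0D1 rose by 0.18 and lost its call without Anillin 2N replicate 1 (0.15, adjusted p = 0.0505). Without control 2N replicate 2, the counts were 21 higher and 3 lower. On the recovered reads 24 of the 40 were higher and 3 lower, against 13.3% and 15.4% of all genes. Quantile scaling gave 50.7% of calls over all genes as higher, against 1473 higher and 2209 lower calls without it.

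Set side by side, the 4N and 2N comparisons share no library, but their calls are not independent. Both came from 1 fit to all 12 libraries, with 1 shared estimate of each gene's spread. Whether 4N and 2N samples were sorted from the same cultures is not given in the sources used here. The genes called higher in both numbered 19 of 36, which is 82.6% of those called higher in 4N cells and all but NPC1 of those called higher in 2N cells. Over all genes tested, 8.90% were called higher in both, which is 44.5% of those higher in 4N cells and 77.9% of those higher in 2N cells. CTSB and CTSL were lower in both (5.56% of the 36, against 14.6% of all genes). None of the 36 was called in opposite directions. Only 70 of all 12892 genes tested were, so this is no result about the 36. In absolute size the change was the larger in 4N cells for 28 of the 36 (77.8%), against 71.1% of all genes. Across the 36 genes, the changes in 4N and 2N cells had a Pearson correlation of 0.92, against 0.65 across all genes tested, as a description only, since genes are not independent replicates.

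**Figure D3:**
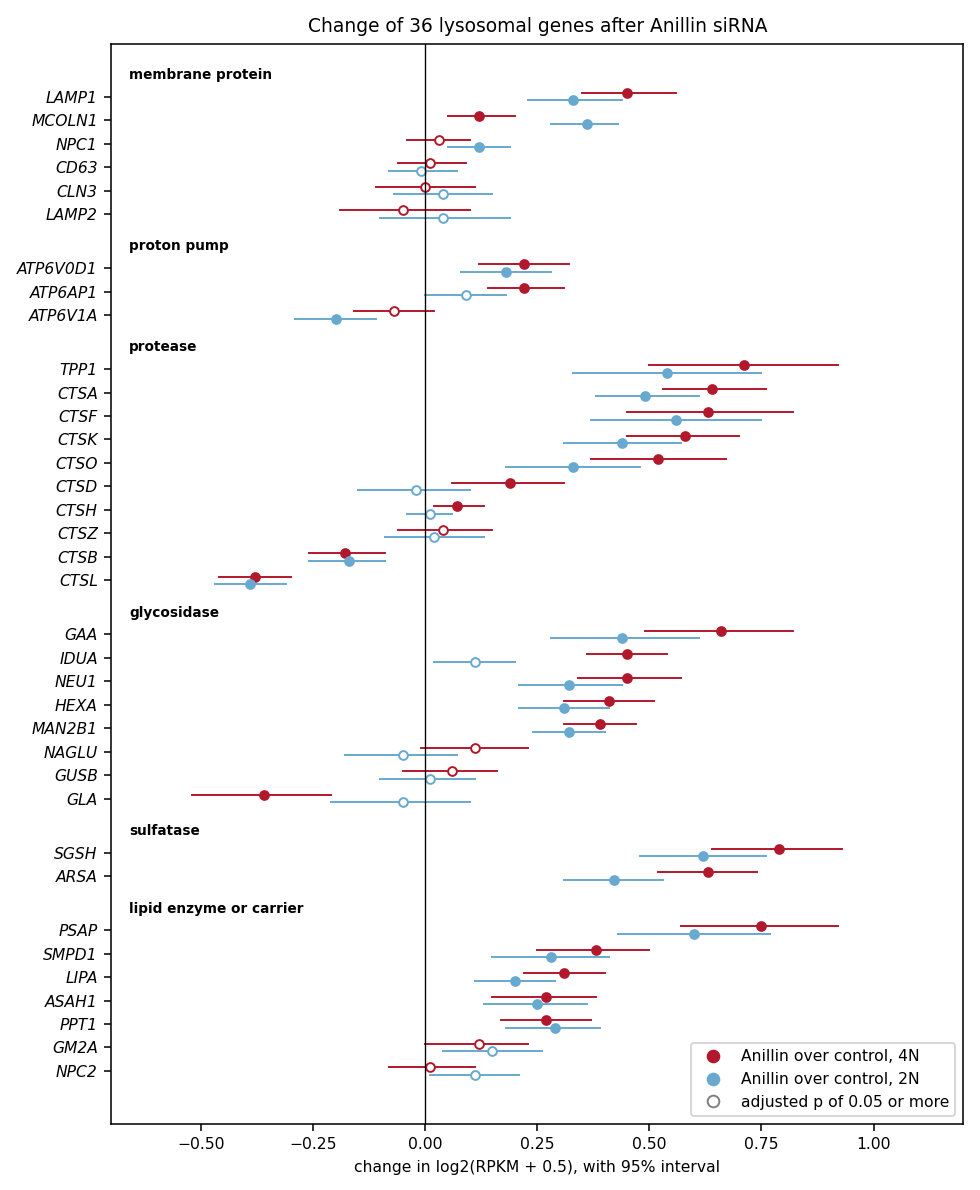
Change of each of the 36 tested genes after Anillin siRNA on the log2(RPKM + 0.5) scale, in 4N cells (upper point of each pair) and 2N cells (lower point), with 95% intervals and genes grouped by role. Filled points passed an adjusted p of 0.05; most lie right of 0, while CTSB and CTSL lie left of it in both comparisons.

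Tested directly, the difference between the siRNA effect in 4N and in 2N cells passed the threshold for 1 gene in each direction, against 4.93% of all genes higher and 10.7% lower. IDUA had 0.915, 0.826 and 0.913 RPKM in Anillin 4N cells and 0.844, 0.813 and 0.841 RPKM in Anillin 2N cells. In control 4N cells it had 0.522, 0.468 and 0.547 RPKM and in control 2N cells 0.725, 0.706 and 0.772 RPKM. Its 4N effect exceeded its 2N effect by 0.34 (SE 0.06, adjusted p = 0.00383), the control 4N libraries being the low ones. MCOLN1 had 1.17, 1.29 and 1.27 RPKM in Anillin 2N cells and 0.876, 0.819 and 0.890 RPKM in control 2N cells, beside its 4N values above. Its 4N effect was smaller than its 2N effect by 0.23 (-0.23, SE 0.05, adjusted p = 0.0111), here with the control 2N libraries as the low ones. GLA, with a difference of -0.31, did not pass the threshold (adjusted p = 0.0652), although it did without Anillin 4N replicate 3 (-0.37, adjusted p = 0.0417) or Anillin 2N replicate 2 (-0.37, adjusted p = 0.0370). On the recovered reads TFEB (0.62, SE 0.13, adjusted p = 0.00307) and MANBA (0.53, SE 0.12, adjusted p = 0.00433) also had the larger effect in 4N cells. On log2(RPKM + 0.5) without the filter on low values, neither TFEB (0.17, adjusted p = 0.0559) nor MANBA (0.21, adjusted p = 0.0786) passed. In the test on reads, 6.57% of all genes were higher and 8.16% lower, and the share of higher calls moved to 41.5% under quantile scaling, against 31.5% for the deposited scale.

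Between the Anillin groups themselves, none of the 36 genes was called in either direction by limma at an adjusted p under 0.05 when the 4N libraries were set against the 2N ones. Over all genes, 2.61% were higher and 0.970% lower, a split of 72.9% higher among the calls that became 61.4% under quantile scaling. At an unadjusted p under 0.05, 2 of the 36 were higher and 1 lower, against 10.2% and 6.21% of all genes. On the recovered reads, where 2.68% of all genes were higher and 1.41% lower, 1 of 40 was called, GUSB, a beta-glucuronidase (0.21, adjusted p = 0.0470), with 2.06, 2.07 and 2.17 RPKM in Anillin 4N cells and 1.94, 1.79 and 1.69 RPKM in Anillin 2N cells. The median change of the 36 was -0.01, and the changes ran from -0.17 (CTSF) to 0.17 (GUSB). For PSAP the 95% interval was -0.25 to 0.09, for TPP1 -0.27 to 0.15, for LAMP1 -0.07 to 0.14 and for CTSL -0.00 to 0.16. Cycling-cell markers did differ between the same groups, with all 6 called higher in Anillin 4N cells. From the further pathway lists described last, 2 of 25 hydrolases were higher, GGH by 0.32 (adjusted p = 0.000840) and CTSV by 0.39 (adjusted p = 0.0109). Of 13 autophagy genes 1 was lower, the cargo receptor OPTN (-0.15, adjusted p = 0.0456), a call that was lost whichever library was left out (adjusted p between 0.0587 and 0.141).

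Control cells gave another picture. Of the 36 genes, 5 were higher in control 4N than in control 2N cells (13.9%) and 15 lower (41.7%), against 23.9% of all genes higher and 13.2% lower. The median was -0.08, against 0.05 over all genes. On the recovered reads 7 of the 40 were higher and 18 lower, against 19.0% and 17.5% of all genes. The lower genes were mainly soluble hydrolases, with 5 of 10 proteases, 3 of 8 glycosidases tested, both sulfatases tested and 4 of 7 lipid genes. IDUA fell the most (-0.29, SE 0.04, adjusted p = 0.000531), with the values given above. CTSO had 0.507, 0.669 and 0.554 RPKM in control 4N cells, against 0.737, 0.945 and 0.751 RPKM in control 2N cells (-0.28, SE 0.07, adjusted p = 0.00873). CTSD (-0.25, SE 0.06, adjusted p = 0.00740) and ARSA (-0.23, SE 0.05, adjusted p = 0.00479) were also lower, with non-overlapping values. LIPA (-0.18, adjusted p = 0.00640) and ATP6V1A (-0.22, adjusted p = 0.00288) were lower as well. TPP1, whose groups overlapped, did not pass the threshold (-0.23, adjusted p = 0.0797).

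Several of these calls rested on 1 library. GAA (-0.26) was not called without control 4N replicate 1 (-0.19, adjusted p = 0.0777) or control 2N replicate 2 (-0.20, adjusted p = 0.0742). PSAP (-0.23, adjusted p = 0.0422) was not called without control 4N replicate 1 (adjusted p = 0.148), control 4N replicate 3 (0.102) or control 2N replicate 2 (-0.13, adjusted p = 0.0893). CTSF (-0.25, adjusted p = 0.0424), whose groups overlapped, was not called without any 1 of 5 libraries, the exception being control 4N replicate 2. CTSA, CTSK, HEXA, SGSH, SMPD1 and ASAH1 were also not called without control 4N replicate 1 (adjusted p between 0.0673 and 0.133). Without control 2N replicate 2, CTSK (-0.10), HEXA (-0.08), SGSH (-0.21), SMPD1 (-0.14) and ASAH1 (-0.10) were not called either (adjusted p between 0.0583 and 0.132). IDUA, CTSO, CTSD, ARSA, LIPA and ATP6V1A were called whichever library was left out. Control 4N replicate 1 had the highest cycling-marker sum of its group (242 RPKM, against 210 and 229 RPKM) and control 2N replicate 2 the lowest of its own, and the part of cycling cells in these differences was not tested. The count of lower genes was 6 without control 4N replicate 1 and 7 without control 2N replicate 2. It was also 6 when only these 2 groups entered the fit, and 24 after quantile scaling. Under that scaling 46.0% of all calls were higher, against 64.4% without it.

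The genes that rose in control 4N cells were GLA, MCOLN1, NPC1, CLN3 and NPC2. GLA had 3.10, 2.75 and 2.80 RPKM in control 4N cells, against 2.09, 1.97 and 2.25 RPKM in control 2N cells (0.38, SE 0.07, adjusted p = 0.00266). MCOLN1, at 1.13 ± 0.0246 RPKM in control 4N cells (SD, n = 3), against 0.876, 0.819 and 0.890 RPKM in control 2N cells, rose by 0.26 (SE 0.03, adjusted p = 0.000306). NPC1 rose by 0.15 (adjusted p = 0.00614). In all 3 genes the control 4N values lay above every control 2N value. The smaller rises of CLN3 (0.14, adjusted p = 0.0436) and NPC2 (0.14, adjusted p = 0.0298) were lost when single libraries were left out, CLN3 with any but control 4N replicate 2 omitted (adjusted p between 0.0538 and 0.149) and NPC2 with any but control 4N replicate 3 or control 2N replicate 1 omitted (0.0753 to 0.0901). NPC2 was at -0.01 after quantile scaling. LAMP1 (-0.08, adjusted p = 0.193), LAMP2 (0.04, adjusted p = 0.632), CTSB (-0.01, adjusted p = 0.870) and CTSL (0.07, adjusted p = 0.170) did not pass the threshold. CD63 (0.02, adjusted p = 0.670) did not either, but was called lower after quantile scaling (-0.10, adjusted p = 0.0414). TFEB was lower in control 4N cells on the reads (-0.56, SE 0.09, adjusted p = 0.000125).

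**Figure D4:**
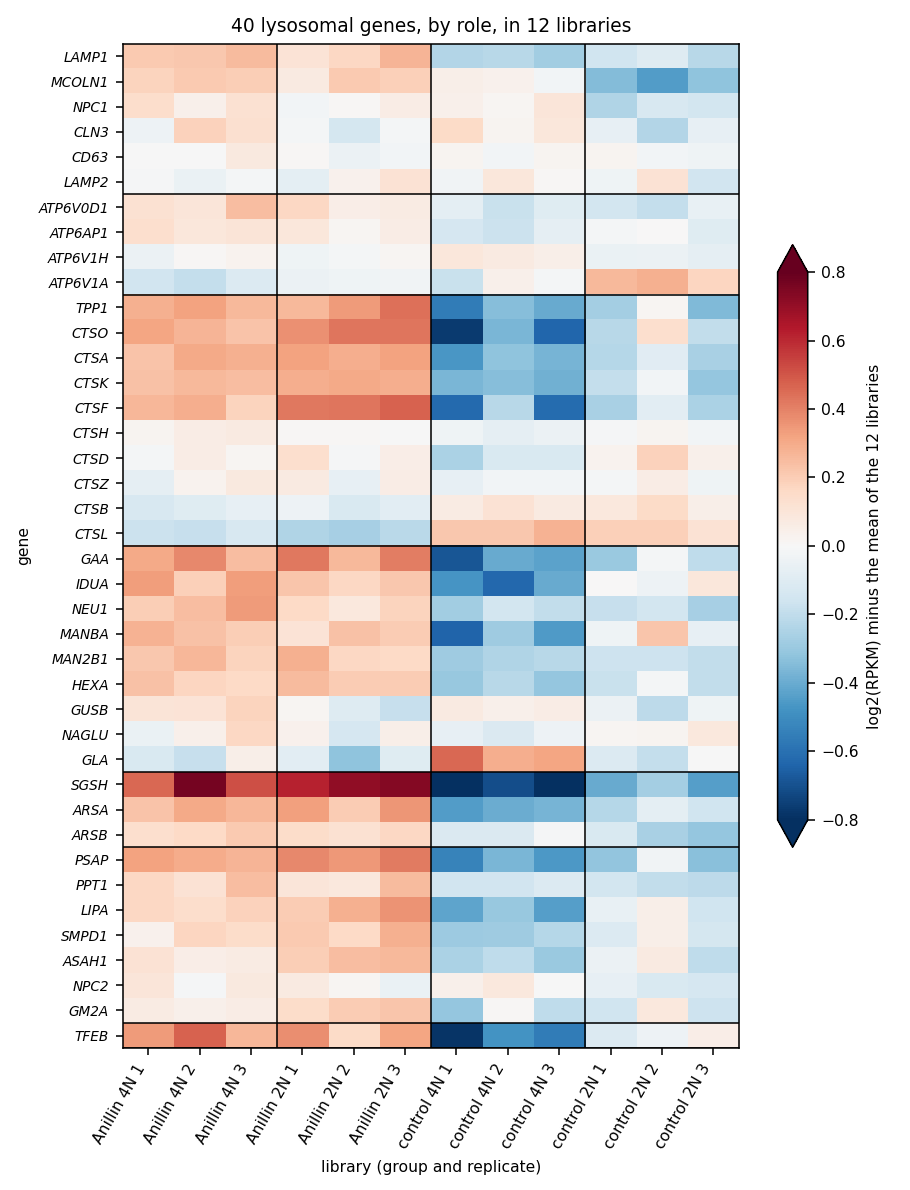
Level of each of the 40 genes in each library as log2(RPKM) minus the gene's mean over the 12 libraries, with genes in rows by role (red higher, blue lower, colours saturating at 0.8). Most hydrolase rows are red in the 6 Anillin columns and bluest in the control 4N columns, CTSB and CTSL are blue in the Anillin columns, GLA is reddest in control 4N cells, and control 2N replicate 2 is redder than its replicates for TPP1, CTSO and PSAP.

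The comparison of Anillin 4N cells with control 2N cells, which uses the same libraries as those above, called 23 of the 36 higher and 3 lower, against 14.1% of all genes higher and 15.8% lower. The median was 0.18, against -0.00 over all genes. SGSH (0.55), PSAP (0.52), TPP1 (0.48), CTSA (0.46), NEU1 (0.44), CTSK and GAA (0.40 each) led the rises, with adjusted p between 0.000172 and 0.00376. MCOLN1 rose by 0.39 (adjusted p = 4.39e-05), LAMP1 by 0.37 (adjusted p = 0.000362) and NPC1 by 0.18 (adjusted p = 0.00271). CTSL (-0.31, adjusted p = 0.000184), ATP6V1A (-0.29, adjusted p = 0.000717) and CTSB (-0.19, adjusted p = 0.00469) were lower. LAMP2, CD63 and CTSD did not pass the threshold. The call of LIPA (0.13, adjusted p = 0.0369) was lost without any 1 of Anillin 4N replicates 1, 2 and 3 (adjusted p 0.0843, 0.0715 and 0.0945) or control 2N replicates 1 and 3 (0.0869 and 0.121). NPC2 (0.16) was not called without control 2N replicate 2 (0.15, adjusted p = 0.0525). Without that library the counts were 23 higher and 3 lower, and the higher count was 18 to 23 with single libraries left out. On the recovered reads 27 of the 40 were higher and 3 lower, against 13.8% and 14.0% of all genes. TFEB rose by 0.38 on the reads (adjusted p = 0.00349).

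**Figure D5:**
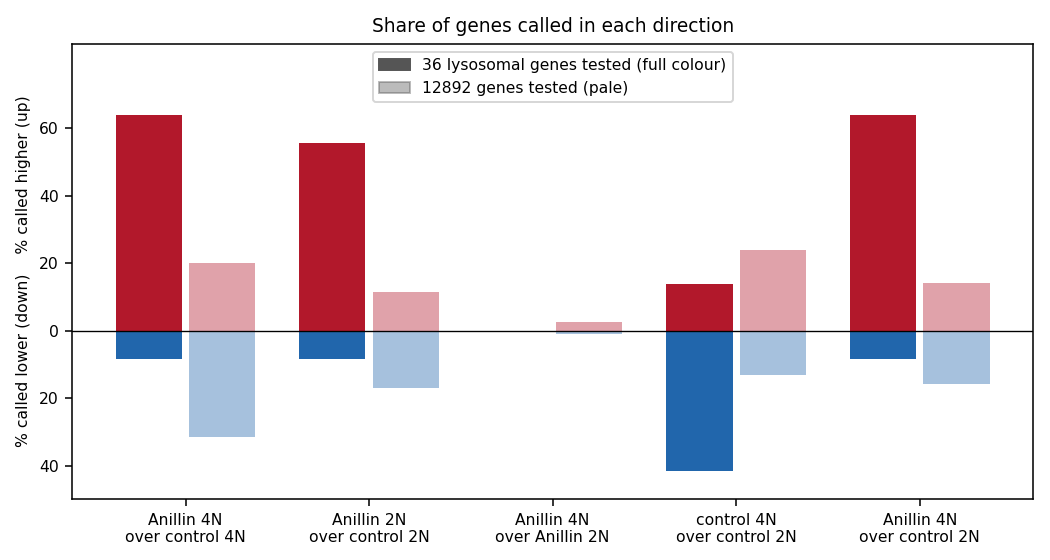
Percentage of genes called higher (red, upward) and lower (blue, downward) at an adjusted p under 0.05 in each comparison of a pair of groups, for the 36 lysosomal genes (full colour) and all genes tested (pale). The lysosomal genes reach 63.9%, 55.6% and 63.9% higher in the 3 comparisons of Anillin with control cells, are at 0% in both directions between the Anillin groups, and are 41.7% lower in control 4N cells.

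By promoter, 8 of the 10 tested genes with a CACGTG window were higher in Anillin 4N cells and the other 2, CD63 and CLN3, did not pass the threshold. Of the 15 tested genes whose windows lacked it, 8 were higher, 2 lower (CTSL and GLA) and 5 did not pass. Of the 11 tested genes with no entry in the table, 7 were higher, 1 was lower and 3 did not pass. Over all genes tested, with or without the motif, 20.0% were higher and 31.5% lower. A link between the motif and the change was not tested.

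Other genes of the lysosomal pathway were counted from 6 lists. Their counts are read against the 20.0% of all genes that were higher and the 31.5% that were lower in Anillin 4N against control 4N cells, and a share near these is not a result about a list. In that comparison, 12 of 25 tested further hydrolases rose and 5 fell. PLBD2, a phospholipase B-like protein, rose by 0.55 and FUCA1, an alpha-fucosidase, by 0.51, while GGH, which trims folate polyglutamates, fell (-0.61) and so did CTSC, a dipeptidyl peptidase (-0.43). GLB1, the beta-galactosidase stained as a sign of senescence, rose by 0.20 in 4N cells (adjusted p = 0.00145) and 0.15 in 2N cells (adjusted p = 0.0158). Of 19 further membrane proteins 10 rose and 2 fell, led by GPNMB (0.68) and the transporter SPNS1 (0.60), with CLN6 (-0.52) and CD68 (-0.27) lower. CD68 did not pass after quantile scaling (-0.11, adjusted p = 0.0960). Further pump subunits split, with 4 of 14 higher (ATP6V1G1 by 0.42 and ATP6V0A1 by 0.39 among them) and 6 lower, including ATP6V0E2 (-0.55) and ATP6V1C1 (-0.24).

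Of 10 genes that sort enzymes to lysosomes 5 rose and none fell in that comparison. IGF2R, the large mannose 6-phosphate receptor, rose by 0.37 (adjusted p = 0.00143) and GNPTG, a subunit of the enzyme that makes the tag, by 0.35. The small receptor M6PR changed by 0.08 (adjusted p = 0.220). Among 11 tested genes of the TFE family and its mTORC1 control, 3 rose and 2 fell. FLCN, which acts on the Rag GTPases that hold mTORC1 and TFEB at the lysosome, had 2.81, 2.72 and 2.73 RPKM in Anillin 4N cells, against 1.61, 1.65 and 1.71 RPKM in control 4N cells (0.59, SE 0.03, adjusted p = 3.73e-07). RRAGB rose by 0.29, and RRAGA (-0.16, adjusted p = 0.0427) and MTOR (-0.12, adjusted p = 0.0384) were lower. Those calls were lost with RRAGA at adjusted p 0.0926 and 0.143 without Anillin 4N replicates 1 and 2 and 0.119 and 0.128 without control 4N replicates 1 and 3, and MTOR at 0.0747 and 0.125 without Anillin 4N replicates 1 and 2 and 0.0862, 0.0575 and 0.133 without control 4N replicates 1, 2 and 3. TFE3, with 6.84, 7.24 and 7.54 RPKM in Anillin 4N cells and 7.55, 7.44 and 8.02 RPKM in control 4N cells, did not pass the threshold (-0.08, adjusted p = 0.170), and MITF lay below the filter at no more than 0.148 RPKM. Of 13 autophagy genes 5 rose and 1 fell. GABARAPL1, an LC3-family protein of the autophagosome membrane, had 7.22, 5.70 and 5.89 RPKM in Anillin 4N cells, against 2.79, 3.57 and 2.92 RPKM in control 4N cells (0.91, SE 0.10, adjusted p = 4.08e-05). ULK1 rose by 0.30, and the LC3 gene MAP1LC3B was lower (-0.25) but not after quantile scaling (-0.13, adjusted p = 0.0517). SQSTM1, an autophagy cargo receptor, rose by 0.24 in 4N cells (adjusted p = 0.00235) and changed by -0.10 in 2N cells (adjusted p = 0.177).

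In Anillin 2N against control 2N cells the same lists gave 9 of 25 hydrolases higher and 5 lower, 10 of 19 membrane proteins higher and 2 lower, 2 of 14 pump subunits higher and 2 lower, 2 of 10 sorting genes higher and none lower, 2 of 11 TFE and mTORC1 genes higher and none lower, and 3 of 13 autophagy genes higher and 1 lower, against 11.4% of all genes higher and 17.1% lower. Of the genes named above, FLCN (0.36), GPNMB (0.61), SPNS1 (0.48), PLBD2 (0.41) and GABARAPL1 (0.44) rose there, and GGH (-0.46) and CD68 (-0.34) fell. ATP6V1G1 (0.42), GNPTG (0.31) and IGF2R (0.29) also rose, and ATP6V1C1 fell (-0.22). The call of ATP6V1B2 (0.14, adjusted p = 0.0170) was lost without Anillin 2N replicate 3 (0.0515), and that of MAP1LC3B (-0.15, adjusted p = 0.0203) without that library or control 2N replicate 1 (0.0652 and 0.0759). The calls of CLN6 (-0.25, adjusted p = 0.0226) and of ATP6V0E2 (-0.43, adjusted p = 0.0249), whose groups overlapped, were lost without any 1 of Anillin 2N replicates 2 and 3 and control 2N replicates 1 and 3 (adjusted p between 0.0556 and 0.0911). After quantile scaling CLN6 (-0.19, adjusted p = 0.0532) and MAP1LC3B (-0.12, adjusted p = 0.0868) did not pass. HGSNAT, which acetylates heparan sulfate, rose by 0.34, the GTPase RRAGC by 0.24 and the LC3 relative GABARAP by 0.30, while CTSV, a cysteine protease close to CTSL, fell (-0.36). In control 4N against control 2N cells, GGH (0.48), CLN6 (0.35) and ATP6V1B2 (0.32) were higher, and SIDT2 (-0.36), CLN8 (-0.32), SQSTM1 (-0.31) and GABARAPL1 (-0.43) lower. There 6 of 13 autophagy genes were lower and none higher, 5 of 25 hydrolases were higher and 7 lower, and 2 of 19 membrane proteins were higher and 6 lower, against 23.9% of all genes higher and 13.2% lower. PIP4P1, a phosphoinositide phosphatase, was higher (0.31), and ATP6V0A1 (-0.28) and RRAGB (-0.23) lower. RRAGC (0.15) and ATP6V1D (0.10) were higher, but not after quantile scaling (adjusted p = 0.0914 and 0.215). FLCN (-0.12) and DNASE2, which digests DNA (-0.24), were not called without control 4N replicate 1 (adjusted p = 0.0526 and 0.0696), nor was FUCA1 (-0.28) without that library or control 2N replicate 2 (0.0702 and 0.0623). The call of MTOR (0.12, adjusted p = 0.0470) was lost whichever library was left out (adjusted p between 0.0508 and 0.155).

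In Anillin 4N against control 2N cells, 8 of 25 hydrolases were higher and 3 lower, 11 of 19 membrane proteins higher and 2 lower, 6 of 14 pump subunits higher and 3 lower, 5 of 10 sorting genes, 4 of 11 TFE and mTORC1 genes and 4 of 13 autophagy genes higher, and 2 autophagy genes lower, against 14.1% of all genes higher and 15.8% lower. SPNS1 (0.61), GPNMB and GABARAPL1 (0.49 each), FLCN (0.47), ATP6V1G1 (0.44), PLBD2 (0.36), the acid phosphatase ACP2 and GNPTG (0.32 each), RRAGC (0.27) and GABARAP (0.23) rose. The mannosidase MAN2B2 (-0.31), CTSC (-0.30), CD68, ATP6V1C1 and MAP1LC3B (-0.25 each) and the cargo receptor NBR1 (-0.19) fell. Other calls rested on single libraries. IGF2R (0.27) did not pass with omission of Anillin 4N replicate 3 or control 2N replicate 1 or 3 (adjusted p 0.0519, 0.0514 and 0.0546), the ion channel TPCN1 (-0.19) not without Anillin 4N replicate 3 (0.0548), and ATP6V1F (0.28) not without Anillin 4N replicate 2 or 3 or control 2N replicate 2 (0.0944, 0.0930 and 0.0907). ATP6V0E1 (-0.14, adjusted p = 0.0488) was not called whichever library of these 2 groups was left out (adjusted p between 0.0502 and 0.159).

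The siRNA effect was larger in 4N than in 2N cells, by the test of the difference, for CLN8 (0.33, adjusted p = 0.00200), SQSTM1 (0.33, adjusted p = 0.0106), ATP6V0A1 (0.31, adjusted p = 0.00321) and FLCN (0.23, adjusted p = 0.00777). The difference was negative for ATP6V1B2 (-0.27, adjusted p = 0.00740), whose means moved in opposite directions. They were 4.96 RPKM in Anillin 4N and 5.47 RPKM in control 4N cells, against 4.75 RPKM in Anillin 2N and 4.26 RPKM in control 2N cells. For GABARAPL1 (0.47, adjusted p = 0.0498) the call was lost with any library but control 4N replicate 2 left out (adjusted p between 0.0502 and 0.124). ATP6V1D (-0.14, adjusted p = 0.0235) averaged 1.08 RPKM in Anillin 4N and 1.28 RPKM in control 4N cells. In 2N cells it averaged 1.13 RPKM with Anillin and 1.16 RPKM with control siRNA. Its call was lost with any 1 of 6 libraries left out (adjusted p 0.0513 to 0.0632). These were replicates 2 and 3 of Anillin 4N, 1 and 2 of Anillin 2N and 1 and 3 of control 4N.

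Some members share their genomic span with another annotated gene, and whether the counting used strand is not given in the sources used here. CTSD overlaps a same-strand Ensembl gene that averaged 82752 reads, against 88169 for CTSD, and the division of reads between them is not known. MCOLN1, with 454 reads on average, overlaps PNPLA6, with 2771, on the same strand, and CLN3, HEXA, MAN2B1 and NAGLU each overlap a same-strand gene with 1038 reads or more. Values of these 6 genes are therefore uncertain. PPT1 and GLA overlap CAP1 and RPL36A-HNRNPH2 on the opposite strand, which had more reads than they did. The annotated span of LIPA covers 200989 bases (chr10:89213569-89414557, minus strand, GRCh38). It holds the interferon-induced genes IFIT1, IFIT2 and IFIT3 on the other strand, and whether any of their reads were counted for LIPA is not known. PSAP (chr10:71816298-71851375), SGSH (chr17:80206716-80220923), CTSL (chr9:87725519-87731393) and TFEB (chr6:41683978-41736259) are placed in the same annotation, and of these SGSH alone overlapped genes with reads, which averaged 17 and 65, against 346 for SGSH.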

How the data were processed

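RNA-seq libraries were made from 12 sorted samples of RPE1 cells, 3 in each of 4 groups, with groups taken from the sample labels. The authors deposited 1 table of RPKM values for 57773 Ensembl identifiers, and the submitters' processing notes name CASAVA 1.8.2, TopHat2, edgeR and hg19. Whether counting used strand is not given in the sources used here. The deposited RPKM values divide by the genomic span of each gene, introns included, so they are comparable between libraries for 1 gene but not between genes. The reads were recovered by taking each value as a whole multiple of what 1 read is worth. With lengths from GENCODE 29 (GRCh38), 29239 of the 38571 genes above 0 came out whole within 0.01 read. For the other 9332, the length used was the smallest that made their values whole, so wholeness is no check there. They include 12 of the 40 lysosomal genes, CTSD and PSAP among them. The recovered reads came to 17412743 to 61760459 per library. The scaling that the authors applied beyond total reads was 0.951 to 1.04, and it followed the groups. It was 0.951 to 0.962 in control 4N, 0.996 to 1.007 in control 2N and 1.011 to 1.039 in Anillin libraries. The shares of reads leave it out, so Anillin and control 4N libraries lie further apart in them than in RPKM.

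The main test was limma 3.58.1 (R 4.3.3) with an intensity trend on log2(RPKM + 0.5), for genes at 0.5 RPKM or more in at least 3 libraries, with 1 mean per group over all 12 libraries, two-sided p-values and Benjamini-Hochberg adjustment over all genes tested at 0.05. Every adjusted p in the text is from this model unless the recovered reads or another setting are named. On the recovered reads it is from limma-voom with trimmed-mean scaling. Under another setting, such as a library left out, it is from limma refitted that way and adjusted over the genes of that fit. Of 5 comparisons between pairs of groups, those with a group in common share its libraries, and the sixth comparison is the difference between the siRNA effects in 4N and 2N cells. Other settings tried were the filter, the pseudocount, the scaling, the trend, a library left out in turn and a fit to only the groups compared. The code was tested on simulated data. Within a group, libraries differed by more than sampling noise, so each was counted as 1 replicate. The labels call the replicates biological, and no further source is given for them.

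The 40 genes and the other gene lists were chosen with earlier results of these data known. For each comparison, the 6 largest rises and 6 largest falls past the threshold are named, with 12 genes named in any case. From each pathway list the 2 largest each way are named, apart from 1 gene that is not reported here. CTSH, GUSB, ATP6AP1 and other genes outside this rule are named as examples, chosen after their values were seen. Figures were drawn with Python 3.11.15 and matplotlib 3.10.9.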

Additional observations from a re-analysis of the deposited data

Results flagged for a closer look

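The siRNA effect differed between 4N and 2N cells for 2 of the 36 genes tested, by the limma test of the difference itself, 1 in each direction, against 4.93% of all genes higher and 10.7% lower. For IDUA the effect was larger in 4N cells by 0.34 on the log2(RPKM + 0.5) scale (SE 0.06, adjusted p = 0.00383), with a rise of 0.45 in 4N cells and a change of 0.11 in 2N cells that did not pass the threshold. The difference was 0.64 on the recovered reads (adjusted p = 0.000476). For MCOLN1 the effect was smaller in 4N cells (-0.23, SE 0.05, adjusted p = 0.0111), with rises of 0.12 in 4N cells and 0.36 in 2N cells, and the difference was -0.32 on the recovered reads (adjusted p = 0.0368). In both genes the Anillin libraries of the 4N and 2N groups overlapped and the control groups did not. MCOLN1 overlaps PNPLA6 on the same strand, and the part of that gene's reads in the result was not tested.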

How the results depend on the processing

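Over the 36 genes tested, the 6 comparisons and the 21 alternatives, 110 calls were lost, 48 were gained and 1 reversed. Values turned their direction with quantile scaling in control 4N against control 2N cells, NPC2 (called at first) to -0.01 and CD63 (not called at first) to -0.10, and the cause was not tested. Counts of members called higher and lower with single libraries left out were 21 to 24 and 3 to 4 for Anillin 4N against control 4N, 19 to 21 and 3 to 3 for Anillin 2N against control 2N, 18 to 23 and 3 to 3 for Anillin 4N against control 2N, and 0 to 0 both ways between the Anillin groups. For control 4N against control 2N they were 3 to 4 and 6 to 15. There the higher count was 3 under quantile scaling and with only these groups in the fit, and the lower count 24 and 6 under those settings. Between the Anillin groups the recovered reads gave 1 higher. For the difference of siRNA effects the higher count was 4 under quantile scaling, 3 on log2 RPM and 3 on the recovered reads, and 1 to 1 with libraries left out, while the lower count was 2 on log2 RPM and 1 to 2 with libraries left out. Other pseudocounts, median-of-ratios scaling, no trend and no filter left every other count within 1.5 times its value.

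The quasi-likelihood test of edgeR that had been planned was not run, and limma-voom was run on the recovered reads. The difference of siRNA effects needs all groups, so it has no fit to only 2. No paired analysis was possible because the sample numbers in the labels differ between groups and pair no samples. Depth limits the low genes most: SGSH had as few as 98 reads in a library.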
